A study of Mus musculus with 20 samples.

Results

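Colony-stimulating factors are the cytokines that instruct bone marrow progenitors to become macrophages and granulocytes, and their genes and receptor genes were followed here as one set of 8: the ligand genes Csf1, Csf2 and Csf3 and the receptor genes Csf1r, Csf2ra, Csf2rb, Csf2rb2 and Csf3r. The set was named by its members and not by their values, and it makes up 8 of the 24342 gene symbols in the table. The study grew macrophages from bone marrow of C57BL/6 mice for 7 to 8 days in 15% L929-conditioned medium, with 1 µM SGC0946, an inhibitor of the histone H3K79 methyltransferase DOT1L, or with the solvent DMSO. The cells were then given 10 ng/mL LPS for 3 h (SGC0946+LPS and DMSO+LPS, 3 libraries each), 2 µM GW3965, an agonist of the nuclear receptor LXR, for 17 h (SGC0946+GW3965 and DMSO+GW3965, 3 each), or were left unstimulated (SGC0946 and DMSO, 4 each), and poly(A) RNA of the 20 libraries was sequenced. Libraries with the same replicate number came from the same mouse, by a deposited sample sheet. All 6 groups received L929-conditioned medium, a source of M-CSF protein, throughout, and the inhibitor was present during differentiation and not only in the finished macrophage.

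Csf1 encodes M-CSF, which binds the receptor tyrosine kinase encoded by Csf1r and is the main survival and growth signal of macrophages. Csf2 encodes GM-CSF, whose receptor pairs a ligand-binding α chain (Csf2ra) with a shared β chain (Csf2rb) that is also used by IL-3 and IL-5, and the mouse carries a second, IL-3-specific β chain, Csf2rb2. Csf3 encodes G-CSF, the granulocyte factor, and Csf3r its single-chain receptor, which like the β chains signals through JAK kinases and STAT factors. Tissue and stromal cells make much of the M-CSF in the body, while activated macrophages, T cells and stromal cells make GM-CSF and G-CSF.

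The start-site regions of 4 members are shown. These genes were higher after LPS in both arms with TMM scaling (Csf2 with low counts left unfiltered), although the direction of Csf2ra turns with library totals. Their matches to the motif of NF-kB, a factor family activated by LPS receptors, and to the core motif of PU.1, a factor of the myeloid lineage, differ. The window of Csf2rb2, which was called higher after LPS in DMSO cells alone, is described below and not shown. Each sequence is the RefSeq window of GRCm38.p6 from 250 bases before to 50 bases after the start, on the gene's own strand, 5′ to 3′. Capitals mark the NF-kB motif (GGGA, any 4 bases, then CC), on either strand, in Csf1 (chr3:107760420-107760719, minus strand), Csf2 (chr11:54249850-54250149, minus strand) and Csf3r (chr4:126024409-126024708, plus strand), and the PU.1 core GAGGAA in Csf2ra (chr19:61228369-61228668, minus strand).
Csf1: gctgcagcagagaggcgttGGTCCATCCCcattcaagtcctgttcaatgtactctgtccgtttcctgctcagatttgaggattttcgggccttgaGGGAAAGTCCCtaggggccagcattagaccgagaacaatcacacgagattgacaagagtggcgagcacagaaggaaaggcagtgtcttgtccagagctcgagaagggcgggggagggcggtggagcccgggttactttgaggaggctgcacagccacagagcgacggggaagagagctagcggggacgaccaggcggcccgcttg
Csf2: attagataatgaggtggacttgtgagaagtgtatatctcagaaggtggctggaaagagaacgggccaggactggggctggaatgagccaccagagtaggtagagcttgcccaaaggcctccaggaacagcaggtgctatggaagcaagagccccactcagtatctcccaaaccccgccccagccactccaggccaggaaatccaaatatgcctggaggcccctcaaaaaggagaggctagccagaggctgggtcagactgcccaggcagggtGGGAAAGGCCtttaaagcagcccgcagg
Csf3r: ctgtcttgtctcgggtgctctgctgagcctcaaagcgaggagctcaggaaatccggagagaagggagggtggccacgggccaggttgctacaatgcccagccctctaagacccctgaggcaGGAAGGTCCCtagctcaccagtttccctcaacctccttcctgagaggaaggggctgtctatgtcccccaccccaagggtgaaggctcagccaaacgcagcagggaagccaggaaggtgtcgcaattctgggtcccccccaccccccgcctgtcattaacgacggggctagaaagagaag
Csf2ra: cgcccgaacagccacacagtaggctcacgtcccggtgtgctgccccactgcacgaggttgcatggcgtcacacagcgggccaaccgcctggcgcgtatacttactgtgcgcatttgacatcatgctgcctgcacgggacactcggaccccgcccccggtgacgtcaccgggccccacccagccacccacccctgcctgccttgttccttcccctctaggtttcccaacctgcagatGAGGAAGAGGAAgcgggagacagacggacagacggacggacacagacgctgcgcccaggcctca
In Csf1 the matches began 231, 155 and 154 bases before the start, and those at 155 and 154 overlap. The Csf2 match lay just inside the transcribed part and the Csf3r match 129 bases before the start used for its window. The annotated Csf3r gene begins further upstream, at base 126023441 of chromosome 4, so this match lies within the gene's span. The PU.1 core stood in tandem in Csf2ra, 14 and 8 bases before the start, once in the Csf3r window and at 2 places in the Csf2rb2 window (chr15:78305672-78305971, minus strand), which had no NF-kB match, as had none the Csf2ra window. Of all 32851 windows of this length, 20.7% held the NF-kB motif and 28.3% the PU.1 core. The AP-1 motif TGANTCA was in none of the 5 members' windows in the table and in 7.81% of all windows. A match is a run of letters and not a measured binding site. Csf3, Csf2rb and Csf1r had no entry.

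Depth was 13.94 to 23.11 M counts per library over all transcripts and 8.17 to 13.33 M in the table of 1 transcript per gene used for the tests. Macrophage marker genes, a list that holds Csf1r itself, summed to 11900 to 19100 CPM (a gene's counts per 1 M counts of the library, scaled with edgeR's TMM factors) and all 7 were tested. Of the markers of other cells, all 3 of the B cell list, all 5 of the mast cell list, 5 of 6 of the T and NK cell list and 5 of 6 of the stromal list stayed under 1 CPM in all libraries, as did 4 of 8 of the neutrophil, 1 of 3 of the endothelial and 1 of 4 of the dendritic cell list. In the SGC0946 arm replicates 2 and 4 stood apart from replicates 1 and 3 for Csf1r and Csf3r, and results that rest on them are given with and without those mice. As mice 2 and 4 were picked from these values, fits without them describe mice 1 and 3 and are no independent test. Replicates 1 to 3 of the DMSO and DMSO+GW3965 groups have the word reanalyzed in their titles, a word whose meaning is not given in the sources used here. No library of the SGC0946 arm has it, so after GW3965 the word and the arm cannot be told apart. No DMSO+LPS library has the word either. It is thus mixed into the LPS change of DMSO cells and the test of whether the inhibitor altered the LPS response. In unstimulated cells DMSO replicate 4 is the only DMSO library without it. A term for the word in a fit thus rests on DMSO replicate 4 against DMSO replicates 1 to 3. Being bulk RNA, the values cannot tell fewer cells of a type from less RNA per cell. Within a group the libraries are from separate mice, so p-values measure the spread between animals and cultures together. The groups share mice, and the main tests did not use this pairing. A fit with the mouse as a block was an alternative.

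Csf1r was the most abundant of the 8 transcripts per length in every library, and the ligand genes Csf2 and Csf3 were at or near 0. Levels were compared between genes on the deposited RPKM scale, which divides by transcript length, and only within libraries. In unstimulated cells Csf1r averaged 578 ± 92.9 RPKM with SGC0946 and 554 ± 25.6 RPKM with DMSO (SD, n = 4 each). The order below it without LPS was Csf2rb2, Csf2rb, Csf2ra, Csf1 and Csf3r in both arms, with or without GW3965. In DMSO cells the neighbours Csf1, at 15.4 to 21.2 RPKM, and Csf3r, at 13.4 to 16.6 RPKM, overlapped, while Csf1 was the higher of the pair in all 4 libraries. The α and β chain genes stood between them and Csf1r, with Csf2rb2 at 104 ± 4.41 RPKM, Csf2rb at 81.9 ± 5.28 RPKM and Csf2ra at 52.8 ± 5.21 RPKM in SGC0946 cells, and at 86.8 ± 8.16, 66.3 ± 3.90 and 48.2 ± 3.49 RPKM in DMSO cells.

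With LPS the ligand gene Csf1 stood second in the order, above the α and β chain genes. It averaged 137 ± 6.07 RPKM in SGC0946+LPS and 151 ± 9.12 RPKM in DMSO+LPS cells (SD, n = 3 each), beside 273 ± 49.1 and 292 ± 11.2 RPKM of Csf1r. Csf2rb2 and Csf2rb were apart in SGC0946+LPS cells, at 65.6 ± 1.57 and 59.2 ± 2.69 RPKM, and overlapped in DMSO+LPS cells, at 61.8 ± 2.59 and 57.2 ± 3.79 RPKM. Csf2 and Csf3 closed the order in all 6 groups, at 0.495 RPKM or less in every library, and did not differ from each other beyond their spread except in DMSO+LPS cells.

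**Figure D1:**
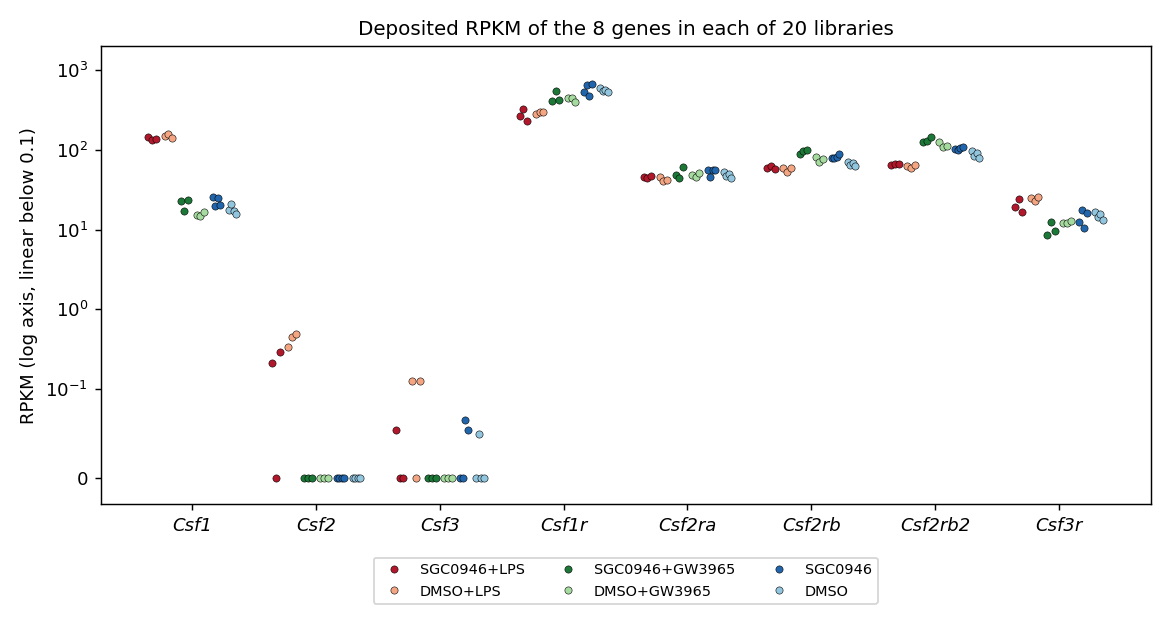
Deposited RPKM (log axis, linear below 0.1) of the 8 genes, with 1 point per library and the 6 groups side by side in each gene. Csf1r lies highest in every library, Csf1 is second to it in the 6 LPS libraries, and Csf2 and Csf3 lie at or near 0.

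The first question was what growing macrophages with the DOT1L inhibitor did to these genes. In unstimulated cells Csf1 and both β chains, Csf2rb and Csf2rb2, were modestly higher with SGC0946, by 1.21-fold to 1.28-fold, and Csf1r, Csf2ra and Csf3r did not pass the test. In LPS-treated cells none of the 6 tested members passed, and in GW3965-treated cells Csf1 and Csf2rb did. Csf2 and Csf3 did not pass the filter on low counts and were not among the genes tested. In unstimulated cells 3 of the 6 tested members were higher and 0 lower, where 4.55% of all 12013 genes tested were called higher and 4.18% lower (8.72% in all; edgeR quasi-likelihood F test, Benjamini-Hochberg adjusted p under 0.05). After GW3965, 2 were higher, where 2.24% of all genes were higher and 1.40% lower (3.64% in all), and after LPS 0 were called, where 3.86% of all genes were called higher and 3.26% lower (7.13% in all). By edgeR's unadjusted p under 0.05, 1 member passed after LPS, and DESeq2 and limma-voom called none there either. The median log2 fold change of the 6 was 0.20 in unstimulated, 0.05 in LPS-treated and 0.16 in GW3965-treated cells, and that of all genes lay within 0.01 of 0.

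Csf1 was measured at 104, 84.9, 106 and 81.7 CPM in the SGC0946 libraries of mice 1 to 4, against 71.2, 86.5, 72.4 and 64.5 CPM in the DMSO libraries. The groups overlapped through DMSO replicate 2, and mice 1 and 3 had the widest gaps. The change was 0.35 ± 0.10 (log2, SE, edgeR adjusted p = 0.0290). In GW3965-treated cells Csf1 stood at 94.6, 71.9 and 94.6 CPM with SGC0946, against 62.0, 60.6 and 67.9 CPM with DMSO. Every SGC0946+GW3965 library lay above every DMSO+GW3965 library, a change of 0.45 ± 0.12 (edgeR adjusted p = 0.0298). After LPS the arms overlapped, with 1001, 925 and 983 CPM in SGC0946+LPS and 999, 1056 and 962 CPM in DMSO+LPS libraries, and the difference was -0.05 ± 0.11 (edgeR adjusted p = 0.840). Both Csf1 calls were close to the threshold. The unstimulated one was lost without SGC0946 replicate 1 (0.30, edgeR adjusted p = 0.0777) or 3 (0.29, 0.0870), without DMSO replicate 1 (0.34, 0.0726), 3 (0.34, 0.0691) or 4 (0.29, 0.110) and with a term for the word reanalyzed (0.54, 0.0810). Without replicates 2 and 4 it stood at 0.55 (0.000395). These mice, picked from Csf1r and Csf3r, had the lower Csf1 values of the SGC0946 group. Deviations of Csf1 from group means ran against those of Csf1r (Pearson r = -0.74) and Csf3r (-0.686). The larger value therefore describes mice 1 and 3 and adds no support to the call. The Csf1 call after GW3965 was lost without any of SGC0946+GW3965 replicates 1 and 3 and DMSO+GW3965 replicates 1, 2 and 3 (0.39 to 0.50, edgeR adjusted p 0.0517 to 0.121), with only the compared groups in the fit (0.46, 0.0670) and with the term for reanalyzed (0.70, 0.114).

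Csf2rb, the signalling chain shared by GM-CSF, IL-3 and IL-5, had 361, 384, 389 and 414 CPM in SGC0946 libraries, against 322, 298, 329 and 296 CPM in DMSO libraries. The groups did not overlap, and the change was 0.31 ± 0.06 (edgeR adjusted p = 0.00321). After GW3965 the values were 418, 468 and 462 CPM in SGC0946+GW3965 and 382, 331 and 367 CPM in DMSO+GW3965 libraries, again without overlap (0.32 ± 0.07, edgeR adjusted p = 0.0150). After LPS they were 464, 499.7 and 464 CPM in SGC0946+LPS libraries, against 447, 398 and 463 CPM in DMSO+LPS libraries, and the difference of 0.13 ± 0.07 did not pass (edgeR adjusted p = 0.336). Without replicates 2 and 4 neither call held, at 0.21 (edgeR adjusted p = 0.190) in unstimulated and 0.24 (0.118) in GW3965-treated cells, and with the term for reanalyzed the values were 0.39 (0.0595) and 0.42 (0.174). With the mouse as a block and the same mice left out, a fit added after the data had been seen, the call after GW3965 held (0.23, adjusted p = 0.0397). The call after GW3965 was also lost without SGC0946+GW3965 replicate 2 (0.29, 0.0656), without DMSO+GW3965 replicate 2 (0.26, 0.102) and with only the compared groups in the fit (0.32, 0.0709).

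Csf2rb2, the IL-3-specific β chain, had 467, 476, 512 and 495 CPM in SGC0946 libraries, against 440, 384, 428 and 368 CPM in DMSO libraries. These groups too were fully separate (0.27 ± 0.06, edgeR adjusted p = 0.00900). The values were 590, 628 and 658 CPM in SGC0946+GW3965 and 577, 508 and 525 CPM in DMSO+GW3965 libraries, a difference of 0.22 ± 0.07 that did not pass with edgeR (adjusted p = 0.0979) and did with DESeq2 (adjusted p = 0.0464). After LPS they were 505, 535 and 534 CPM in SGC0946+LPS and 473, 441 and 491 CPM in DMSO+LPS libraries (0.16 ± 0.07, edgeR adjusted p = 0.186). Without replicates 2 and 4 the unstimulated difference was 0.18 and did not pass (edgeR adjusted p = 0.340). The pair of β chain genes share sequence. Of the 50-base windows of the annotated transcripts, 18.9% of those of Csf2rb and 19% of those of Csf2rb2 also occur in the other, so reads of one may have been counted for the other or dropped, and the counts of both are uncertain to that extent.

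Csf2ra, the α chain that binds GM-CSF, did not pass in any condition. It had 98.2, 85.0, 103 and 98.6 CPM in SGC0946 libraries, against 93.5, 83.4, 90.6 and 82.3 CPM in DMSO libraries (0.14 ± 0.07, edgeR adjusted p = 0.276), and an approximate 95% interval of -0.01 to 0.29. The differences were 0.18 ± 0.09 after LPS (edgeR adjusted p = 0.242) and 0.11 ± 0.09 after GW3965 (adjusted p = 0.581).

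Csf1r, the M-CSF receptor, averaged 2214 ± 358 CPM in SGC0946 cells and 2110 ± 70.3 CPM in DMSO cells. The SGC0946 libraries split, with 2548 and 2489 CPM in mice 2 and 4, above all DMSO libraries (2027 to 2187 CPM), and 1984 and 1834 CPM in mice 1 and 3, below all of them. The mean difference of 0.07 ± 0.11 did not pass (edgeR adjusted p = 0.763, approximate interval -0.15 to 0.29), and it was -0.18 without replicates 2 and 4 (adjusted p = 0.325). After LPS Csf1r had 1685, 2125 and 1520 CPM with SGC0946 and 1713, 1816 and 1885 CPM with DMSO (-0.02 ± 0.13, edgeR adjusted p = 0.955). After GW3965 it had 1573, 2117 and 1563 CPM with SGC0946 and 1709, 1697 and 1526 CPM with DMSO (0.09 ± 0.13, edgeR adjusted p = 0.796). In both, mouse 2 of the inhibitor arm was the highest library. The exons of Csf1r overlap those of Hmgxb3 on the opposite strand over 15.1% of their length, and the strand setting of the counting is not given in the sources used here. Hmgxb3 itself averaged 36.1 to 46.5 CPM in the 6 groups.

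Csf3r, the G-CSF receptor, split in the same way. Its values were 46.4, 70.8, 42.1 and 60.7 CPM in the SGC0946 libraries of mice 1 to 4, against 62.2, 55.2, 61.6 and 52.1 CPM in the DMSO libraries. Mice 1 and 3 of the inhibitor arm lay below all DMSO libraries, and mouse 2 lay above them. The difference over all mice was -0.06 ± 0.14 (edgeR adjusted p = 0.827), and it was -0.22 ± 0.15 after LPS (adjusted p = 0.448) and -0.26 ± 0.17 after GW3965 (adjusted p = 0.470). Without replicates 2 and 4 Csf3r was lower with SGC0946 in all 3 conditions, at -0.48 in unstimulated (edgeR adjusted p = 0.00300), -0.43 in LPS-treated (0.00297) and -0.45 in GW3965-treated cells (0.00695). These values set mice 1 and 3 alone, which were picked for standing apart, and describe those mice.

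Csf3r is also a gene of the granulocyte lineage, and the summed level of listed markers of neutrophils and their precursors was lower with the inhibitor. The summed level of the 8 listed markers was 1.39 to 5.42 CPM in SGC0946 and 18.7 to 26.5 CPM in DMSO libraries, 3.42 to 5.17 CPM in SGC0946+LPS and 24.6 to 27.3 CPM in DMSO+LPS libraries, and 1.28 to 3.36 CPM in SGC0946+GW3965 and 15.8 to 23.8 CPM in DMSO+GW3965 libraries. None of the 8 was at 0 in all libraries, 4 stayed under 1 CPM throughout and 3 passed the filter. Most of the sum was S100a8, Ngp and Ltf, at 6.00, 8.87 and 7.09 CPM in DMSO and 0.939, 0.839 and 1.20 CPM in SGC0946 cells. Elane, Mpo and Prtn3 averaged 0.426 CPM or less in every group. With SGC0946 Mpo and Prtn3 had the higher mean after GW3965 (0.163 against 0.141 and 0.378 against 0.202 CPM), as had Elane after LPS (0.0401 against 0 CPM). Other lists also differed between the arms without overlap. The endothelial sum was 37.3 to 46.6 CPM in SGC0946 and 15.2 to 25.2 CPM in DMSO libraries and 34.8 to 43.6 CPM in SGC0946+GW3965 and 15.8 to 21.5 CPM in DMSO+GW3965 libraries, and the stromal sum, under 1 CPM in these 4 groups, was 0.608 to 0.745 CPM in SGC0946 and 0.168 to 0.478 CPM in DMSO libraries. The part of these markers in the values of Csf3r and the other members was not tested.

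**Figure D2:**
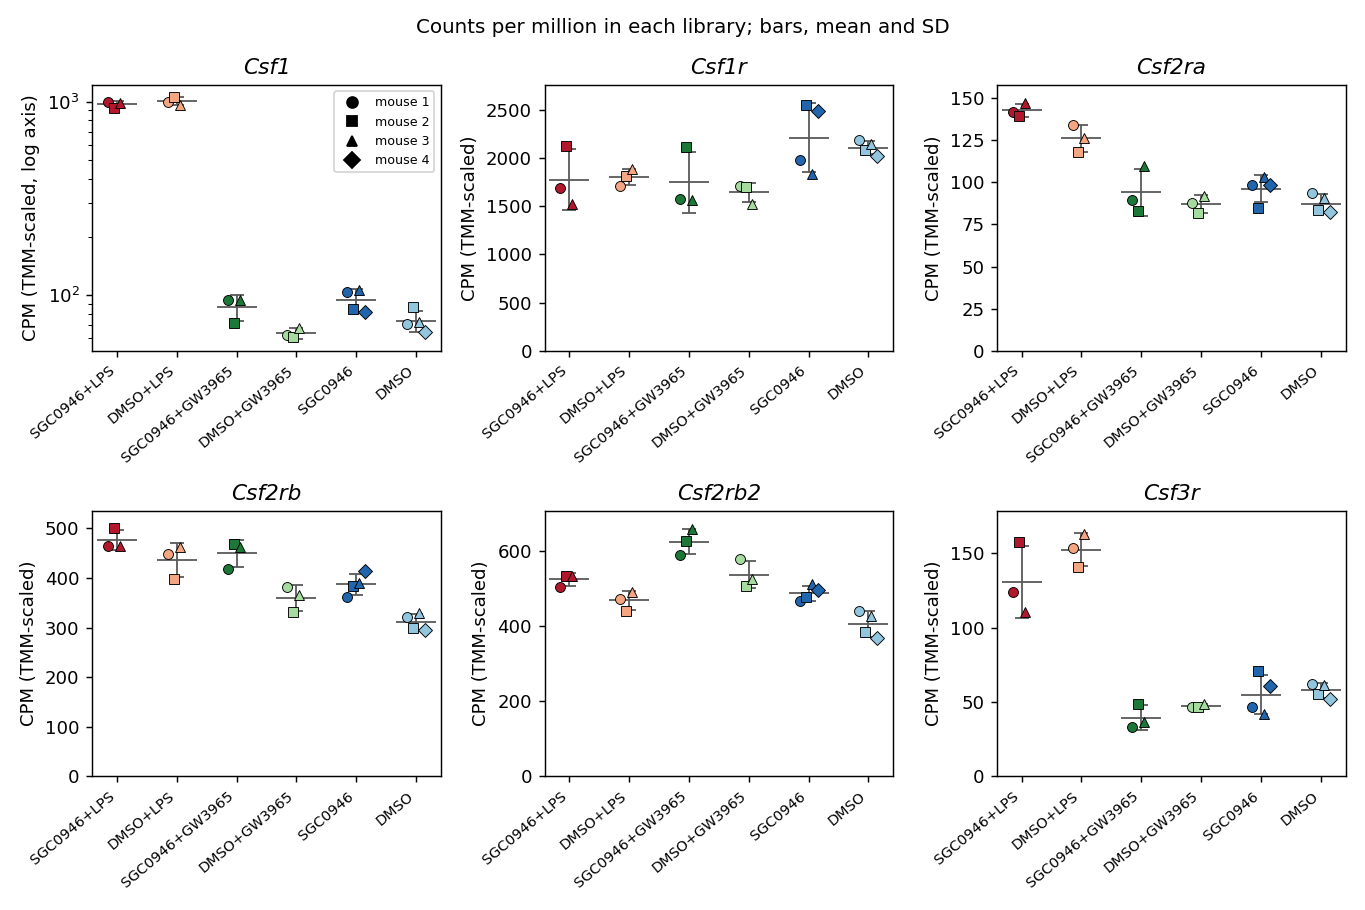
CPM (TMM-scaled) of the 6 tested genes in every library, with the mouse shown by the marker shape and the mean and SD of each group by a line and bar. The axis of Csf1 is logarithmic and the others start at 0. In Csf1r and Csf3r the SGC0946 libraries of mice 2 and 4 lie above those of mice 1 and 3, and after LPS the direction of Csf2ra, Csf2rb and Csf2rb2 against unstimulated cells depends on the scaling.

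Within a mouse, the α and β chain genes Csf2ra, Csf2rb and Csf2rb2 were each higher with SGC0946 in 10 of 10 comparisons with the DMSO library of the same mouse and condition. The log2 differences ranged from 0.03 to 0.26 for Csf2ra, from 0.005 to 0.50 for Csf2rb and from 0.03 to 0.43 for Csf2rb2. Csf1 was higher in 8 of 10, with the exceptions in mouse 2 unstimulated (-0.03) and after LPS (-0.19). Csf1r was higher in 5 of 10 and Csf3r in 4 of 10. For Csf3r the sign went by mouse and not by condition, since mouse 1 had -0.42 unstimulated, -0.31 after LPS and -0.48 after GW3965, mouse 3 had -0.55, -0.56 and -0.43, mouse 2 had 0.36, 0.16 and 0.07, and mouse 4 had 0.22. Csf1r was higher in mice 2 and 4 (0.23 to 0.32) and lower in mouse 1 (-0.14 to -0.02) throughout, with mouse 3 at -0.23, -0.31 and 0.03. The 10 comparisons come from 4 mice and share cultures of a mouse, so they are a description and not 10 independent tests.

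**Figure D3:**
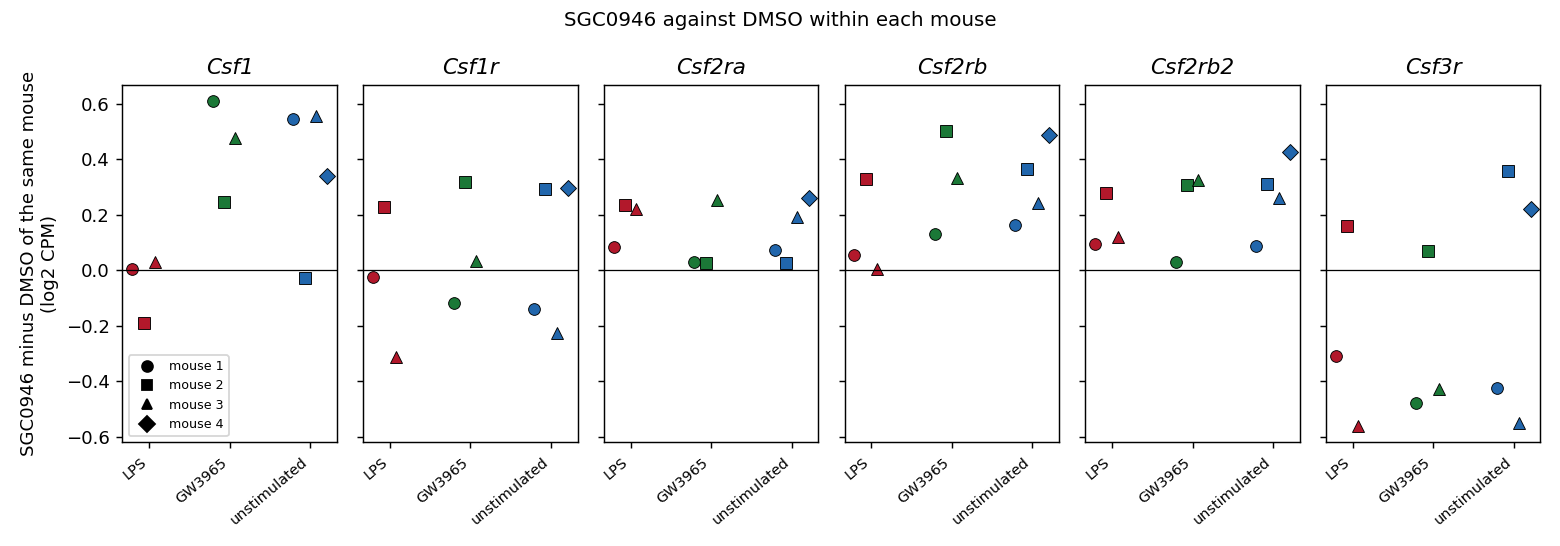
Difference in log2 CPM, SGC0946 minus DMSO, between libraries of the same mouse and condition for the 6 tested genes, with 1 point per mouse (shape) and condition (colour). All 10 points of Csf2ra, Csf2rb and Csf2rb2 lie above 0, and those of Csf3r lie below 0 in mice 1 and 3 and above 0 in mice 2 and 4.

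The second question was how 3 h of LPS moved the genes. Csf1 and Csf3r rose in both arms, Csf1 by 10.3-fold with SGC0946 and 13.7-fold with DMSO, and Csf2 reads were seen in LPS libraries alone. With TMM scaling Csf2ra and Csf2rb rose in both arms and Csf2rb2 in DMSO cells, and scaled to library totals these changes were negative. Csf1r was not higher in either arm, with TMM, DESeq2 size factors or library totals. In SGC0946 cells 4 of the 6 tested members were higher and 1 lower, where 35.8% of all genes were higher and 38.8% lower (74.6% in all). In DMSO cells 5 were higher and 0 lower, where 35.4% and 38.7% of all genes were (74.1% in all). The median change of the 6 was 0.43 in SGC0946 and 0.51 in DMSO cells, and that of all genes was -0.07 in both arms. TMM factors differed with LPS, at 0.686 to 0.716 in LPS libraries and 1.14 to 1.19 in the others. Scaled to library totals alone, the median change of all genes was -0.81 in SGC0946 and -0.80 in DMSO cells, a shift of -0.74 and -0.73, so the small changes below are relative to the scaling.

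The M-CSF gene Csf1 averaged 969 ± 39.7 CPM in SGC0946+LPS cells, against 94.2 ± 12.7 CPM in SGC0946 cells, and 1006 ± 47.3 CPM in DMSO+LPS cells, against 73.6 ± 9.21 CPM in DMSO cells. No library with LPS came near one without it. The change was 3.37 ± 0.11 in the SGC0946 arm, a 10.3-fold rise (edgeR adjusted p = 1.73e-17), and 3.77 ± 0.11 in the DMSO arm, a 13.7-fold rise (adjusted p = 3.34e-18). Scaled to library totals the changes were 2.62 and 3.04.

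The GM-CSF gene Csf2 had 3, 0 and 3 counts in the SGC0946+LPS libraries and 4, 7 and 6 counts in the DMSO+LPS libraries, and 0 in each of the 14 libraries without LPS. Summed over a group, that is 0.268 CPM in SGC0946+LPS (exact Poisson 95% interval 0.0985 to 0.584) and 0.710 CPM in DMSO+LPS cells (0.414 to 1.14), with intervals that cover counting error only. Against the limit that 0 counts allow, taken as 3 counts over the unstimulated group, Csf2 was at least 4.47-fold higher in SGC0946+LPS than in SGC0946 cells and at least 12.5-fold higher in DMSO+LPS than in DMSO cells, with the LPS groups taken at their measured levels. The SGC0946 value rests on 6 counts, and it was 7.12-fold without SGC0946+LPS replicate 2 and 3.03-fold to 3.53-fold without any 1 other library of the pair of groups. With low counts left unfiltered Csf2 entered the test and passed for LPS in both arms (edgeR adjusted p = 0.00938 with SGC0946 and 0.000102 with DMSO). Its level was lower in all SGC0946+LPS libraries than in any DMSO+LPS library. The nearest were SGC0946+LPS replicate 3, with 3 counts (0.512 CPM), and DMSO+LPS replicate 1, with 4 counts (0.546 CPM). In the unfiltered edgeR test the log2 difference between the arms after LPS did not pass (-1.37, adjusted p = 0.464). The difference of -0.414 CPM had p = 0.1 in a two-sided exact permutation test (n = 3 each), which is the smallest p this design allows. Exons of Csf2 overlap Gm12223 on the opposite strand over 12% of their length.

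The G-CSF gene Csf3 was near the limit of detection in all groups, with at most 2 counts in a library. It had 8 counts in all 20 libraries, with 1 in SGC0946+LPS, 4 in DMSO+LPS, 2 in SGC0946 and 1 in DMSO libraries and 0 in both GW3965 groups, where 3 counts would be 0.0904 CPM (SGC0946+GW3965) and 0.0780 CPM (DMSO+GW3965). The 4 counts in DMSO+LPS came from 2 libraries and made 0.167 CPM (exact Poisson 95% interval 0.0455 to 0.428), beside 0.0189 CPM in DMSO cells (0.000479 to 0.105), and Csf3 did not pass for LPS in DMSO cells with low counts left unfiltered (edgeR adjusted p = 0.114). Its receptor gene Csf3r was well measured, at 124, 157 and 110 CPM in SGC0946+LPS, against 42.1 to 70.8 CPM in SGC0946 libraries, and at 154, 141 and 163 CPM in DMSO+LPS, against 52.1 to 62.2 CPM in DMSO libraries. The groups were apart in both arms. Csf3r rose by 1.25 ± 0.14 in the SGC0946 arm (2.37-fold, edgeR adjusted p = 8.73e-08) and by 1.40 ± 0.14 in the DMSO arm (2.64-fold, adjusted p = 1.14e-08). With library totals the rises were 0.50 (adjusted p = 0.00190) and 0.67 (adjusted p = 0.000105).

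Among the α and β chain genes, Csf2ra had 142, 139 and 147 CPM in SGC0946+LPS and 134, 118 and 126 CPM in DMSO+LPS libraries, above the 85.0 to 103 CPM of SGC0946 and the 82.3 to 93.5 CPM of DMSO libraries. The change was 0.57 ± 0.08 in the SGC0946 arm (edgeR adjusted p = 1.64e-06) and 0.53 ± 0.08 in the DMSO arm (adjusted p = 4.59e-06), and with library totals it was -0.17 (adjusted p = 0.0624) and -0.20 (adjusted p = 0.0338). Csf2rb changed by 0.30 ± 0.07 in the SGC0946 arm (edgeR adjusted p = 0.000456) and by 0.49 ± 0.07 in the DMSO arm (adjusted p = 1.32e-06), and with library totals by -0.44 (1.55e-06) and -0.24 (0.00137). Csf2rb2 changed by 0.11 ± 0.07 in the SGC0946 arm, which did not pass (edgeR adjusted p = 0.159), and by 0.21 ± 0.07 in the DMSO arm (adjusted p = 0.00780), and with library totals by -0.63 (9.75e-09) and -0.52 (2.07e-07). All 3 chains lay above the median of all genes under both scalings, while their direction against 0 differed between them. The Csf2rb2 call in the DMSO arm was lost without replicates 2 and 4 (0.16, edgeR adjusted p = 0.0851).

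Csf1r changed by -0.32 ± 0.12 with LPS in the SGC0946 arm (edgeR adjusted p = 0.0227) and by -0.23 ± 0.12 in the DMSO arm, which did not pass (adjusted p = 0.0972). The SGC0946+LPS libraries, at 1520 to 2125 CPM, overlapped the SGC0946 libraries, at 1834 to 2548 CPM, while the DMSO+LPS libraries, at 1713 to 1885 CPM, all lay below the DMSO libraries, at 2027 to 2187 CPM. With library totals the changes were -1.06 (adjusted p = 1.79e-08) and -0.96 (adjusted p = 8.49e-08). The call in the SGC0946 arm was lost without SGC0946 replicate 2 (-0.24, 0.0814) or 4 (-0.26, 0.0744), without SGC0946+LPS replicate 1 (-0.28, 0.0803) or 3 (-0.22, 0.145) and with only the compared groups in the fit (-0.32, 0.0566). In the DMSO arm Csf1r passed with only the compared groups in the fit (-0.22, 0.000646) and without replicates 2 and 4 (-0.26, 0.00521).

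A few single genes of the lists for other cell types were higher after LPS. They were Lck of the T and NK cell list, at 37.6 ± 3.18 CPM in SGC0946+LPS and 19.9 ± 2.66 CPM in DMSO+LPS cells, against 0.256 ± 0.254 CPM (SGC0946) and 0.619 ± 0.419 CPM (DMSO) without stimulus, and Kdr, which made up most of the endothelial sum of 241 to 284 CPM in SGC0946+LPS and 151 to 200 CPM in DMSO+LPS libraries, against 37.3 to 46.6 CPM in SGC0946 and 15.2 to 25.2 CPM in DMSO libraries. The T and NK cell sum, at 33.9 to 39.8 CPM in SGC0946+LPS and 18.4 to 23 CPM in DMSO+LPS libraries, and the endothelial sum were thus apart between the arms after LPS as well. The dendritic cell sum was 2.53 to 4.10 CPM in SGC0946+LPS and 3.32 to 4.36 CPM in DMSO+LPS libraries, against 0.608 to 1.35 CPM in SGC0946 and 0.300 to 1.19 CPM in DMSO libraries. The stromal sum, which rested on Pdgfrb, was 8.42 to 8.79 CPM in SGC0946+LPS and 5.33 to 9.41 CPM in DMSO+LPS libraries, against 0.608 to 0.745 CPM in SGC0946 and 0.168 to 0.478 CPM in DMSO libraries. The defining markers Cd3e and Cd3d were at 0 in all LPS libraries, and the other endothelial markers Cdh5 and Tie1 stayed at or under 2.05 CPM in them. The part of such cells in the members' values was not tested.

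The third question was the LXR agonist. With GW3965 1 member, Csf2rb2, was higher in both arms, and the other 5 tested members did not pass. Few genes passed for the agonist, with 1.32% of genes higher and 1.11% lower in SGC0946 cells (2.42% in all) and 1.35% higher and 1.20% lower in DMSO cells (2.55% in all). The median change of the 6 members was -0.07 in SGC0946 and -0.11 in DMSO cells, beside medians of -0.003 and -0.005 over all genes.

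Csf2rb2 stood at 590, 628 and 658 CPM in SGC0946+GW3965 libraries, above the 467 to 512 CPM of SGC0946 libraries, and at 577, 508 and 525 CPM in DMSO+GW3965 libraries, above the 368 to 440 CPM of DMSO libraries. The groups did not overlap in either arm. It rose by 0.36 ± 0.07 in the SGC0946 arm (1.28-fold, edgeR adjusted p = 0.00383) and by 0.41 ± 0.07 in the DMSO arm (1.33-fold, adjusted p = 0.00126). Its paralog Csf2rb differed by 0.22 ± 0.07 (adjusted p = 0.107) and 0.21 ± 0.07 (adjusted p = 0.106) in the SGC0946 and the DMSO arm, with approximate 95% intervals of 0.08 to 0.35 and 0.08 to 0.34. Csf2rb passed in the DMSO arm with only the compared groups in the fit (0.21, adjusted p = 0.0397).

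The receptor genes Csf1r and Csf3r had lower means with GW3965. Csf1r averaged 1751 ± 317 CPM in SGC0946+GW3965 cells, against 2214 ± 358 CPM in SGC0946 cells (-0.34 ± 0.12, edgeR adjusted p = 0.174), and 1644 ± 102 CPM in DMSO+GW3965 cells, against 2110 ± 70.3 CPM in DMSO cells (-0.36 ± 0.12, adjusted p = 0.119). All DMSO+GW3965 libraries (1526 to 1709 CPM) lay below all DMSO libraries. With the mouse as a block the DMSO comparison passed (-0.34, adjusted p = 0.0485). So 2 members and not 1 were called there, where 4.42% of all genes were. Csf1r in the DMSO arm also passed with only the compared groups in the fit (adjusted p = 0.000268) and without replicates 2 and 4 (-0.42, 0.00510). In the SGC0946 arm Csf1r passed without SGC0946+GW3965 replicate 2 (-0.50, 0.0240).

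Csf3r had 33.4, 48.8 and 36.2 CPM in SGC0946+GW3965 libraries, against 42.1 to 70.8 CPM in SGC0946 libraries, and 46.6, 46.5 and 48.8 CPM in DMSO+GW3965 libraries, against 52.1 to 62.2 CPM in DMSO libraries. The changes were -0.48 ± 0.15 in the SGC0946 arm (edgeR adjusted p = 0.116) and -0.29 ± 0.15 in the DMSO arm (adjusted p = 0.353). Several other settings moved these values past the threshold. The SGC0946 arm passed without SGC0946 replicate 3 (-0.59, 0.0338), with low counts left unfiltered (-0.49, 0.0322) and without SGC0946+GW3965 replicate 2 (-0.67, 0.0260), and the DMSO arm with only the compared groups (-0.29, 0.0198) and without replicates 2 and 4 (-0.37, 0.0163). Csf1 differed by -0.11 ± 0.11 (SGC0946 arm) and -0.22 ± 0.11 (DMSO arm), and Csf2ra by -0.03 ± 0.08 and -0.004 ± 0.08, with edgeR adjusted p of 0.330 or more.

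**Figure D4:**
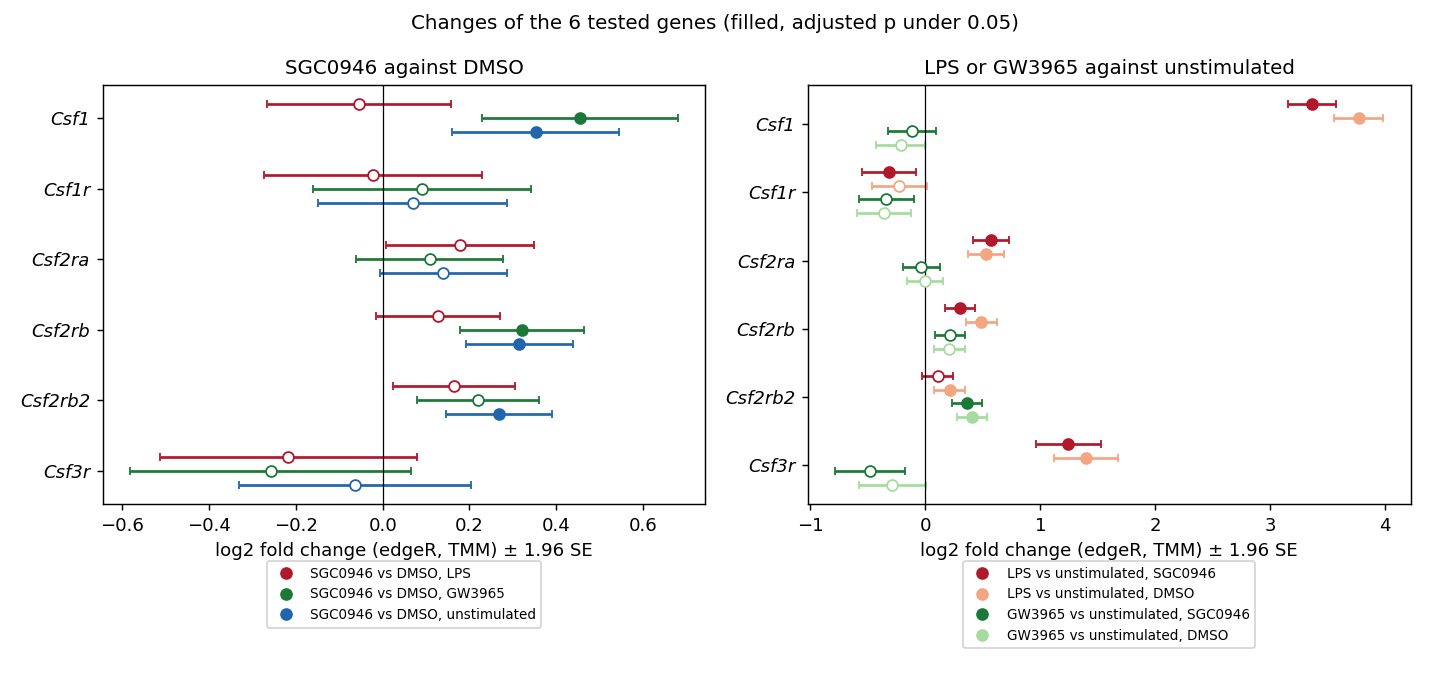
Log2 fold changes (TMM scaling) with approximate 95% intervals of the 6 tested genes, SGC0946 against DMSO at left and LPS or GW3965 against unstimulated cells at right, with filled points where the adjusted p was under 0.05. Csf1 after LPS stands at 3.37 (SGC0946) and 3.77 (DMSO). The LPS points of Csf2ra, Csf2rb and Csf2rb2 turn negative with library totals.

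Whether the inhibitor altered the responses was tested directly, as a difference of differences. None of the 6 members passed for LPS or for GW3965 (edgeR quasi-likelihood, Benjamini-Hochberg), where 0.00832% of all genes, a single gene, passed for LPS and 0% for GW3965. At an unadjusted p under 0.05 there was 1 member for LPS and 0 for GW3965, and DESeq2 and limma-voom called no member in either. The 1 member was Csf1, whose LPS response was 0.41 ± 0.15 log2 units smaller in the SGC0946 arm (-0.41, edgeR unadjusted p = 0.0116, adjusted p = 0.487). Its adjusted p was 0.0848 without replicates 2 and 4 (-0.54), and 0.0187 when the mouse was also a block (-0.54), a fit added after the data had been seen. Both fits leave out mice that were picked for standing apart, and they describe the mice that remain.

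Ratios between members within a library do not depend on the scaling of libraries. The ratio of RPKM of Csf2rb2 to Csf2rb was 1.11 ± 0.04 in SGC0946+LPS and 1.08 ± 0.03 in DMSO+LPS cells, 1.40 ± 0.05 in SGC0946+GW3965 and 1.5 ± 0.05 in DMSO+GW3965 cells, and 1.27 ± 0.05 in SGC0946 and 1.31 ± 0.05 in DMSO cells. LPS libraries were all lower and GW3965 libraries all higher in this ratio than the unstimulated libraries of their arm, without passing adjustment (exact permutation p = 0.0571, Benjamini-Hochberg adjusted p = 0.109 in each of the 4 comparisons). The ratio of the α chain to the sum of the β chains was 0.368 ± 0.018 in SGC0946+LPS and 0.360 ± 0.017 in DMSO+LPS cells, 0.226 ± 0.029 in SGC0946+GW3965 and 0.251 ± 0.015 in DMSO+GW3965 cells, and 0.284 ± 0.022 in SGC0946 and 0.315 ± 0.004 in DMSO cells. In unstimulated cells all SGC0946 libraries were lower in it than all DMSO libraries (two-sided exact permutation p = 0.0286, the smallest that n = 4 each allows). Csf1r exceeded Csf1 by a ratio of 1.99 ± 0.43 in SGC0946+LPS and 1.94 ± 0.15 in DMSO+LPS cells, 22.6 ± 8.04 in SGC0946+GW3965 and 28.1 ± 3.33 in DMSO+GW3965 cells, and 26.2 ± 7.58 in SGC0946 and 31.3 ± 3.62 in DMSO cells. Over the 21 comparisons of the 3 ratios none passed adjustment, with a lowest Benjamini-Hochberg adjusted p of 0.109 from exact permutation tests. With 3 libraries against 4 the smallest p possible is 0.0571, and with 3 against 3 it is 0.1.

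**Figure D5:**
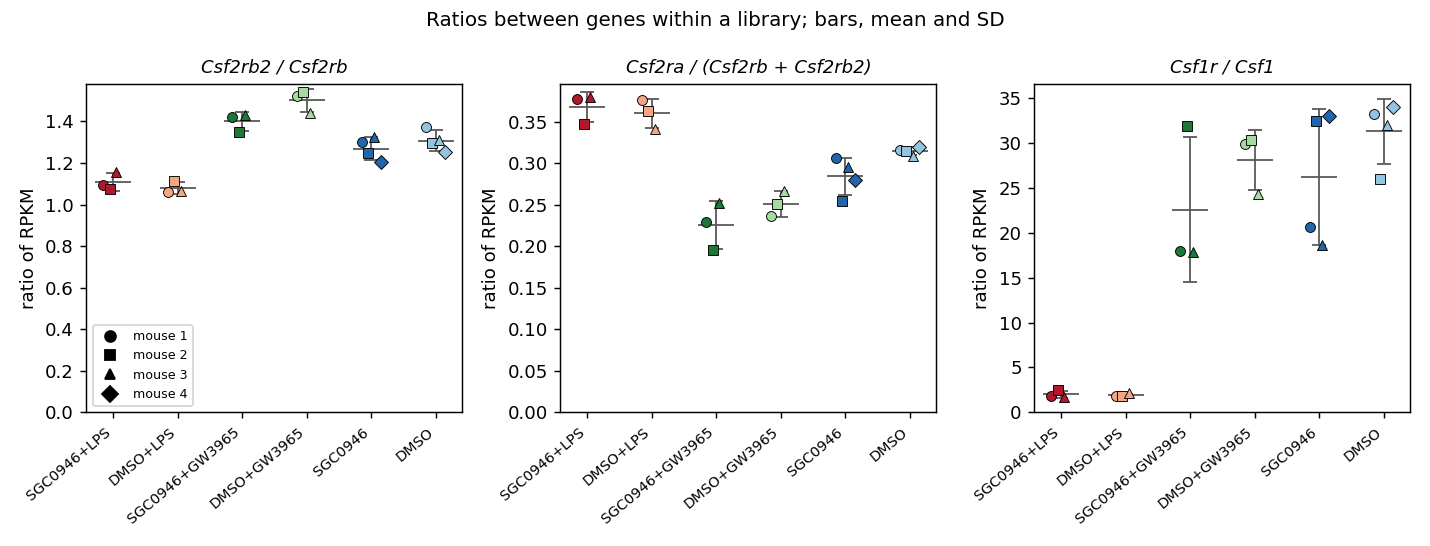
Ratios of deposited RPKM between genes of the same library, with 1 point per library (shape by mouse) and the mean and SD of each group. Csf2rb2 over Csf2rb is lowest in the LPS and highest in the GW3965 groups, and Csf1r over Csf1 is near 2 with LPS and between 17.9 and 34.0 in libraries without it.

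Around the receptors, 61 genes of the pathway were listed (other ligands and receptors of the family, receptor-proximal signalling, negative regulators, transcription factors of myeloid receptor genes and target genes), of which 55 were tested. With SGC0946, 2 were higher and 1 lower in unstimulated cells, 3 higher and 2 lower after LPS and 1 higher after GW3965, which is 5.45%, 9.09% and 1.82% of them, beside 8.72%, 7.13% and 3.64% of all genes. With the mouse as a block the counts were 3 and 3, 5 and 3, and 2 and 2 (10.9%, 14.5% and 7.27%, beside 12.3%, 9.71% and 5.85% of all genes). With the term for reanalyzed none was called in unstimulated or GW3965-treated cells, where 1.63% and 0.549% of all genes were. After LPS 2 were higher and 0 lower with this term (3.64%, beside 6.54% of all genes). The list's median change was 0.00, -0.0006 and 0.01 in the 3 conditions, next to medians of all genes within 0.01 of 0. Src, a kinase of the family that M-CSF receptors engage, rose to 8.96 ± 1.36 CPM with SGC0946, against 4.94 ± 0.801 CPM with DMSO (0.88 ± 0.14, edgeR adjusted p = 0.000293). The adaptor gene Gab2 rose by 0.17 ± 0.05 (adjusted p = 0.0311) and the Src-family kinase gene Fyn fell by 0.25 ± 0.07 (adjusted p = 0.0269). These 3 calls were lost with the term for reanalyzed (adjusted p = 0.0663 for Src, 0.167 for Gab2 and 0.212 for Fyn), and those of Gab2 and Fyn also without replicates 2 and 4 (0.867 and 0.601). After LPS Sos1, a Ras exchange factor, was 0.35 ± 0.06 higher with SGC0946 (adjusted p = 0.00121), the myeloid transcription factor genes Runx1 and Irf8 were 0.28 ± 0.07 and 0.22 ± 0.06 higher (adjusted p = 0.0142 and 0.0429), and the survival gene Mcl1 fell by 0.24 ± 0.07 (adjusted p = 0.0443). Without replicates 2 and 4 the calls of Runx1 (0.223) and Irf8 (0.0880) were lost, and with DESeq2 size factors or the term for reanalyzed those of Irf8 (0.0542 and 0.0516) and Mcl1 (0.0518 and 0.0509). Kit, a receptor kinase related to Csf1r, was 0.94 ± 0.26 higher with SGC0946 after GW3965 (adjusted p = 0.0465), a call lost with library totals (0.0506) and with the term for reanalyzed (0.492).

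With LPS 33 of the 55 pathway genes were higher and 14 lower in SGC0946 cells (85.5% called, beside 74.6% of all genes), and 33 were higher and 11 lower in DMSO cells (44 of 55, beside 74.1% of all genes). With library totals 27 were higher and 21 lower in each arm, or 87.3%, beside 88.9% of all genes in SGC0946 and 88.7% in DMSO cells. Jak2, the kinase of the β chains, rose by 4.60 ± 0.07 (edgeR adjusted p = 1.41e-22) in the SGC0946 arm and by 4.65 ± 0.07 (adjusted p = 1.48e-22) in the DMSO arm. Stat5a, a factor that GM-CSF activates, rose by 4.03 ± 0.07 (1.21e-21) and 3.79 ± 0.07 (2.57e-21). The feedback inhibitor gene Socs1 stood at 208 ± 32.9 CPM in SGC0946+LPS, against 1.01 ± 0.298 CPM in SGC0946 cells, and at 208 ± 21.3 CPM in DMSO+LPS, against 1.19 ± 0.403 CPM in DMSO cells. With library totals these 3 genes remained higher, by 3.06 to 6.95. GW3965 was followed by 5 higher and 2 lower pathway genes in the SGC0946 arm (12.7%, beside 2.42% of all genes) and 5 higher and 1 lower in the DMSO arm (10.9%, beside 2.55% of all genes), and with the mouse as a block 3 were lower in the DMSO arm. With that block 14.5% of the listed genes were called in the DMSO arm, beside 4.42% of all genes. Pik3cd, a kinase subunit used by these receptors, rose by 0.42 ± 0.07 (edgeR adjusted p = 0.00183) in the SGC0946 arm and by 0.39 ± 0.07 (adjusted p = 0.00454) in the DMSO arm.

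The genes most like each member over the 20 libraries, by Pearson r of log2 CPM, were taken as the highest 3 among all tested genes. For Csf1 they were Slc28a2 and St3gal1 (r = 0.996 each) and Arel1 (0.995), out of 2570 genes with r of 0.9 or more. For Csf3r they were Serp1 (0.975), Gpr141 and Ms4a6c (0.974 each), out of 1602, and for Csf2ra Ccr1 (0.967), Amotl2 (0.962) and Pdpn (0.961), out of 835. Few genes tracked the others. Csf1r had Fcgrt (0.962), Ermard (0.906) and Serinc5 (0.884), Csf2rb had Chd4 and Gpnmb (0.916 each) and Cpq (0.877), and Csf2rb2 had Gpr137b-ps (0.822), Anpep (0.821) and Cd5l (0.813). The points share libraries, mice and the 3 conditions, so these r values describe likeness across the study's design alone.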

How the data were processed

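RNA was measured as 50-base single-end reads of mRNA libraries made from 700 ng of RNA, per the labels' protocols. The submitters' processing notes name STAR 2.5.2b, SAMtools 1.3.1 and the mm10 build. Which program counted the reads, with which gene models and strand setting, is not given in the sources used here. Deposited counts are whole reads per RefSeq transcript and library. The deposited RPKM values are the same counts divided by transcript length and library total. That was checked on 780 transcripts with 2000 or more counts in every library, with a relative deviation of at most 3.97e-05.

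RefSeq symbols (GRCm38.p6) named 35440 of 35745 transcripts. The 305 unnamed ones held 1.17% of counts and were left out. Per symbol, the transcript with most counts over all libraries was retained, which left 24342 symbols with 57.3% of counts. The other Csf1 transcripts had 72.1 to 76.7% and 41.0 to 46.5% of the count of the one kept, and reads they share could not be assigned. Counts were tested with edgeR 4.0.16 (R 4.3.3), using quasi-likelihood F tests, TMM scaling, filterByExpr (count minimum 10) and 1 mean per group over all 20 libraries. This tested 12013 genes at a biological coefficient of variation of 8.87%. Benjamini-Hochberg adjustment ran over all of them, with calls at an adjusted p under 0.05. SEs are approximate, since they were derived from the F statistic and the log2 fold change, and so are the 95% intervals made from them. On simulated counts the unstimulated comparison called 100% of genes changed by 2 log2 units and 93.9 to 95.9% of those changed by 1 log2 unit. The simulation gave all genes the same spread, had no mouse effect and held no change smaller than 1 log2 unit. Power for the smaller differences of the members between the arms was not tested. Csf2 and Csf3 did not pass the filter, and 6 of 8 members did. Intervals for Csf2 and floors of 3 counts cover counting error only.

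The deposited sample sheet gives a mouse number that equals the replicate number in 20 of 20 libraries. Deviations from group means correlated at a median of 0.205 (0.0608 to 0.501) over 46 pairs of libraries with the same number and -0.121 (-0.409 to 0.257) over 120 other pairs. The tests ran without this block, and a fit with it was an alternative. The other alternatives were DESeq2 (1.42.0) and limma-voom (limma 3.58.1), DESeq2 size factors, library totals, no filter, a count minimum of 30, only the compared groups, other choices of transcript, a term for the word reanalyzed, leaving out replicates 2 and 4, and leaving out each library. The members, the lists and the alternatives were chosen with earlier results of these data known. The text names all 8 members, up to 4 called pathway genes per comparison by smallest adjusted p, and the 3 genes most like each tested member, and a few cell markers were picked after their values were seen. The values of 1 pathway gene that this rule names are not reported here.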

Additional observations from a re-analysis of the deposited data

Results flagged for a closer look

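Csf3 in DMSO replicate 2 stood apart from the other unstimulated DMSO libraries. It had 1 count there, or 0.0663 CPM, and 0 counts in DMSO replicates 1, 3 and 4. A single read is within counting error, and 14 groups of 4 libraries were examined in this way. The rule marks every group in which 1 library has counts and the others have 0. A chance rate of about 1 in 20, meant for continuous values, does not hold for a gene with so few counts.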

How the results depend on the processing

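Of the results for single members, 778 settings left direction and call as they were, 26 brought a value past the threshold, 30 took one below it and 27 turned a direction. The replicate block (mouse) moved Csf1r after GW3965 in DMSO cells past the threshold (-0.34), so that 2 members were called there, and changed no other call of a member. In that comparison 4.42% of all genes were called with the block, beside 2.55% in the main fit. With a term for the word reanalyzed 1 member was called with SGC0946 in unstimulated cells and 0 after GW3965, and Csf3r in unstimulated cells turned to 0.084. Calls over all genes also fell with this term, to 1.63% and 0.549%, from 8.72% and 3.64% in the main fit. With only the compared groups in the fit, 0 members were called with SGC0946 after GW3965, where 164 of 11402 genes were. With GW3965 in DMSO cells 4 members were called in such a fit, where 888 of 11450 genes were. With no filter 2 members were called with GW3965 in SGC0946 cells, and with Csf2 in the test 6 with LPS in each arm. Of 17492 genes in these unfiltered tests, 337 were called with GW3965 in SGC0946 cells. With LPS 9314 were called in SGC0946 and 9069 in DMSO cells. Without replicates 2 and 4, 1 member was called with SGC0946 after LPS and 3 with GW3965 in DMSO cells, and values turned for Csf1r in unstimulated (-0.18) and GW3965-treated cells (-0.042) and for Csf1 after LPS (0.013). Of the 11970 genes tested in that fit, 529 were called with SGC0946 after LPS and 263 with GW3965 in DMSO cells. The same mice left out with the replicate block, a fit chosen after seeing the data, gave 1 member with SGC0946 after LPS, 3 with SGC0946 after GW3965, 3 with GW3965 in SGC0946 cells, 3 in DMSO cells, 1 in the LPS interaction, and -0.18, -0.041 and 0.013 for the values that turned. In these comparisons, in the same order, 899, 514, 382, 563 and 6 of 11970 genes were called. Library totals turned the LPS changes of Csf2ra, Csf2rb and Csf2rb2 to -0.17, -0.44 and -0.63 in SGC0946 and -0.20, -0.24 and -0.52 in DMSO cells. Leaving out 1 library gave 0 to 1 members with SGC0946 after GW3965, where 232 to 454 of 12151 to 12190 genes were called. It gave 1 to 3 with GW3965 in SGC0946 cells, where 134 to 485 of 11979 to 12184 genes were called. It turned only values that were not called, namely SGC0946 against DMSO for Csf1r (-0.0047 to 0.15 unstimulated, -0.17 to 0.076 after LPS, -0.065 to 0.17 after GW3965), Csf3r (-0.21 to 0.042 unstimulated) and Csf2ra (-0.014 to 0.19 after GW3965), and GW3965 against unstimulated cells for Csf2ra (-0.16 to 0.049 in SGC0946, -0.044 to 0.042 in DMSO cells) and Csf1 (-0.18 to 0.0089 in SGC0946 cells). Both ways of choosing a transcript by level kept the same transcript of each member. Csf2 and Csf3 had counts too few to resolve small differences. The cause of these shifts was not tested.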
